A study of Mus musculus with 8 samples.

Results

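The sites described here are positions of adenosine-to-inosine RNA editing in wild-type mouse Th17 cells that carried a level in both libraries of 1 or both of 2 Th17 groups. They were chosen by joining the deposited site lists of the groups on chromosome and position. Of 988 sites in the lists of the series, 547 were listed for wild-type Th17 cells: 207 in both groups, 192 in the first only and 148 in the second only. The first group ("first culture" below) is the Th17 arm of the comparison with naive CD4+ T cells, and the second ("second culture") is the wild-type arm of the comparison with DDX5-deficient Th17 cells, DDX5 being an RNA helicase. Each group had 2 libraries, which the series describes as independent biological replicates. Cells came from C57BL/6 mice and were polarised for 72 h with anti-CD3 (0.25 µg/mL), anti-CD28 (1 µg/mL), IL-6 (20 ng/mL) and TGF-β (0.1 ng/mL), although other passages of the labels also allow other TGF-β doses and another time. The naive group was not polarised. The DDX5-deficient libraries are titled DDX5∆T, and the labels do not spell out how DDX5 was removed. The headers of the gene counts of the first culture carry the words Malat1 and WT. Library 2 of the first culture shares a number in its name with library 2 of the naive group. What these marks mean is not stated. Which mice, culture days or sequencing runs separate the cultures is not stated either, so all of these cannot be told apart.

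Adenosine-to-inosine editing is made by the ADAR enzymes, which bind double-stranded RNA and deaminate adenosines in it. Inosine is read as guanosine by reverse transcriptase and by the ribosome, so an edited site appears as an A-to-G change, and in coding sequence it can alter the protein. Most editing in mammals lies in 3′ UTRs and introns where inverted repeats fold back on each other, and a few recoding sites in single transcripts are conserved.

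Shared coding sites are shown first, because a change there can alter a protein. Sequences are DNA letters of GENCODE M21 transcripts (mm10), 5′ to 3′ on the transcript strand, with the edited adenosine in capitals.
Cyfip2: cagatacattAagaccagtgc
Flna: tctagtcttcAggagtcaggg
Cog3: cattaaggaaAtttccctgga
Azin1: aattgtggaaAgctgtcttct
Son: ctggggcattAgagttgcctg
Chtf8: catgtggcttAggaccaggtc
The next sequences surround 3′ UTR sites: the near-completely edited Rpa1 sites at positions 75301015 and 75300577, a Rpa1 site of intermediate level at 75301000, Gnl3l sites at 150985455 and 150985529, and sites of Mfap1a and Mad2l1 whose levels lay far apart between the cultures.
Rpa1, 75301015: aacagaaattAtgtcacaagt
Rpa1, 75300577: ttgagacacaAtccctgtttg
Rpa1, 75301000: acaagtcattAaccccactct
Gnl3l, 150985455: tctaccgagcAagttccagga
Gnl3l, 150985529: ctgggcatacAcctttaatcc
Mfap1a: ctcttctagaAgaccagagtt
Mad2l1: agaagcgtttAaatgtaaaca

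The first culture was checked against its label by marker genes. Il17a, the signature cytokine of Th17 cells, was at 1344 and 1036 CPM (read count scaled to a fixed library total) in its libraries, and Il17f at 2170 and 2320 CPM. The summed B cell markers were at 0.488 and 1.27 CPM, and the summed myeloid markers at 3.98 and 4.16 CPM. Of the regulatory T cell markers Foxp3 had 3 and 1 reads, and Ikzf4 was at 35.6 and 35.4 CPM. Gata3, the Th2 regulator, was at 88.3 and 32.1 CPM. Nkg7, a marker of CD8 T and NK cells, was at 30.2 and 32.2 CPM, and Cd8a had 2 and 6 reads. The part of these other cell types in the editing levels was not tested. Adar, the broadly expressed editing enzyme, was at 152 and 143 CPM and its relative Adarb1 at 260 and 213 CPM. Gene expression of the second culture was not analysed here, so its label was not checked this way.

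The shared sites were 51.9% of the 399 sites of the first culture and 58.3% of the 355 sites of the second. At the level of genes the lists had more in common. Sites fell in 139 and 132 named genes, 90 of them in both lists, which is 64.7% and 68.2%. The base change was the same at 207 of 207 shared sites, and the reference base was A at 472 of 472 sites that lay in an annotated exon. The lowest confidence score was 0.99037 in both lists. Of the first list, 39 sites had no gene name in the deposited table, while the second list had none without a name.

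Most sites lay in 3′ UTRs. These held 176 shared sites (85.0%), 156 of the sites listed for the first culture only (81.3%) and 105 of those listed for the second only (70.9%). Introns held 4 (1.93%), 8 (4.17%) and 20 (13.5%). Coding sequence held 7, 2 and 2. Another listed site lay within 50 bases of 69.6% of shared sites, 61.5% of first-only sites and 51.4% of second-only sites. No test was made of these differences, since neighbouring sites of a transcript are not independent.

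In all 3 sets the neighbouring bases differed from those of nearby adenosines in the direction known for ADAR. The base before the edited adenosine was T at 46.3% of 190 shared sites, 39.0% of 164 first-only sites and 36.4% of 118 second-only sites, against 17.9% of 6711 other adenosines nearby. A G before the adenosine, which ADAR disfavours, stood at 3.16%, 4.27% and 8.47%, against 24.4% of the other adenosines. An inverted copy within the same transcript (at least 50 bases at 70% identity or more) covered 53.7%, 65.2% and 47.5% of the sites. The same search covered 4.54% of all adenosines in the 3′ UTRs of these transcripts.

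Sites with more reads were more often listed again. In the first list, 28.6% of 126 sites with 5 to 9 reads were also in the second list, against 81.4% of 97 sites with 50 or more. In the second list these shares were 38.3% of 94 and 66.3% of 83, with 62.6% and 68.4% in the classes between. Shared sites had a median of 31 reads in the first culture and first-only sites 10. The corresponding medians in the second culture were 20 and 12. These reads are those of library 2 of each culture, the library that the deposited coverage fits. The level had a less regular relation to being listed again: 29.3% of 41 second-culture sites under 10% were shared and 70.6% of 109 at 40% or more, while in the first culture the shares were 54.3% of 46 and 57.7% of 111.

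**Figure D1:**
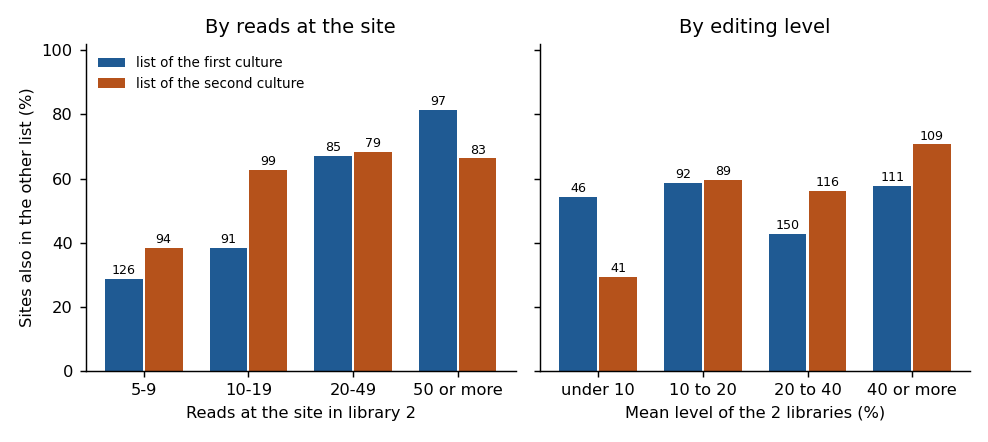
Share of sites (percent, y axis) also listed for the other culture, by reads over the site in library 2 of their own culture (x axis). It went from 28.6% to 81.4% in the first list and from 38.3% to 66.3% in the second.

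Genes with a shared site were expressed at a median of 21.5 CPM per kilobase of exon in the first culture (80 of 83 measured). Genes found in the first list only were at 10.5 (44 of 49), genes found in the second list only at 14.1 (35 of 42), and genes of both lists without a shared site at 7.83 (7 of 7). In bulk RNA, fewer cells of a type and less RNA per cell cannot be told apart. The list of the second culture gives levels of the DDX5-deficient libraries beside the wild-type ones. Both DDX5-deficient libraries had a level at 98.6% of shared sites and 83.8% of second-only sites. All 355 sites of that list had wild-type levels, so it holds no site of DDX5-deficient cells alone. Naive sites come from the list of the first culture, which also holds sites without a Th17 level. Of shared sites 25.6% were listed for naive cells, of first-only sites 25% and of second-only sites 19.6%. The naive and DDX5-deficient shares are unlike measures and were not compared.

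At the 207 shared sites, the mean editing level was 30.6% and 31.1% in the libraries of the first culture and 32.4% and 36.9% in those of the second. Both libraries of the second culture lay above both of the first. The group means were 30.8% ± 0.310 and 34.7% ± 3.20 (SD, n = 2), a difference of 3.82 percentage points with an exact two-sided permutation p of 0.33, the smallest that 2 libraries against 2 allow. Without library 2 of the second culture the difference was 1.56 points, and without its library 1 it was 6.09 points. With each gene counted once the difference was 3.29 points and the libraries of the cultures overlapped (exact permutation p = 0.667). The second culture was higher at 138 sites and lower at 69.

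Most correlations between the cultures lay below those within them. Across the 207 sites, Pearson's r was 0.811 between the libraries of the first culture and 0.812 between those of the second. Between cultures it was 0.716, 0.733, 0.775 and 0.833, the last for library 1 of each. The median absolute difference at a site was 6.01 points within the first culture, 7.67 within the second and 7.14 to 8.89 between them. Sites of a transcript share its reads, so these values describe the libraries and carry no test.

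**Figure D2:**
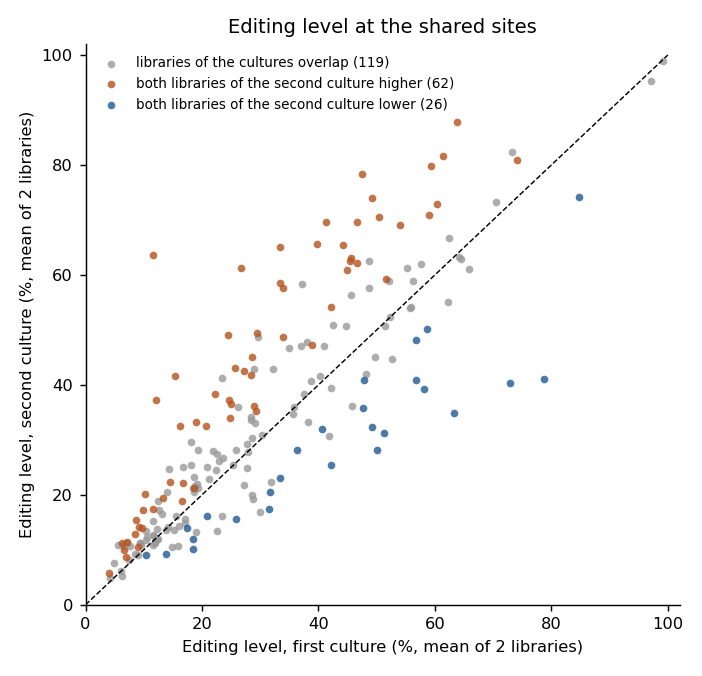
Editing level (percent) at the 207 shared sites, second culture against first. The points follow the diagonal, with 138 above it and 69 below.

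Over all shared sites, none passed the adjusted test between the cultures. The limma test with Benjamini-Hochberg adjustment called 0 of 207 sites higher (0.00%) and 0 lower (0.00%), with a smallest adjusted p of 0.143. At an unadjusted p under 0.05 it had 21 higher (10.1%) and 4 lower (1.93%). Fisher's exact test of library 2 against library 2, which compares those libraries and not the cultures, also called none of 153 sites, with 15 higher and 1 lower unadjusted. The counts of 0 are no measure of likeness. In libraries simulated with the deposited coverage of library 2, limma called none of the sites given a large difference. Fisher's test called a minority of them. With only the 153 sites of at least 10 reads in both cultures, limma called 5 higher and 1 lower, and with the 101 of at least 20 reads 4 higher and 0 lower. At 62 sites (30.0%) both libraries of the second culture lay above both of the first, and at 26 (12.6%) below.

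The coding sites included known recoding targets. There were 11, of which 8 change the amino acid and 7 were shared. At 4 of the 7 the second culture lay above the first without overlap, and at none below, against 30.0% and 12.6% of all shared sites. None of the 7 passed the adjusted limma test.

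Cyfip2, a regulator of actin assembly, had levels of 8.68% and 11.8% in the first culture and 22.4% and 18% in the second at chromosome 11, position 46272643. The groups did not overlap, and library 2 had 220 and 139 reads. Flna encodes a filamin, which cross-links actin, and its site changes a cAg codon to cGg. Flna (X, 74226862) was at 31.6% and 25.6%, then 54.4% and 35.6%. It lay higher in the second culture without overlap. Its difference of 16.4 points had an adjusted p of 0.504 by limma. It was 7.04 points without library 1 of the second culture and 25.8 points without library 2.

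Cog3, a subunit of a Golgi tethering complex, was at 74.0% and 57.7% in the first culture and 65.9% and 56.3% in the second (14, 75719719). Azin1, an inhibitor of antizyme that regulates polyamine synthesis, was at 8.76% and 3.47%, then 5.73% and 6.52% (15, 38491612). Levels overlapped at both. The sites of Son and Chtf8 leave the amino acid as it is. Son, a splicing cofactor, was at 7.98% and 6.41%, then 12% and 10.8% (16, 91656133). Chtf8, a subunit of a clamp loader, was at 5.28% and 4.42%, then 4.22% and 11.1% (8, 106885604).

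**Figure D3:**
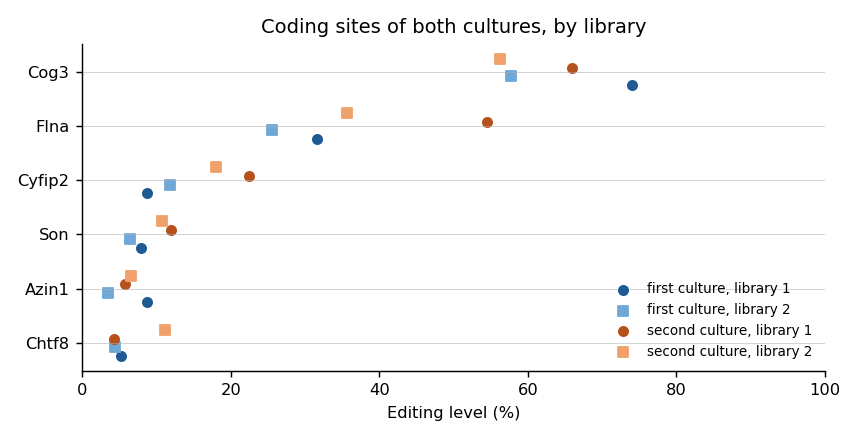
Editing level (percent) at the shared coding sites of Cyfip2, Flna, Cog3, Azin1, Son and Chtf8 in each library of the cultures. Cyfip2, Flna and the shared Son site lay higher in both libraries of the second culture.

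Coding sites in 1 list were low in level. Copa, a coatomer subunit, had 7.14% and 4.94% in the first culture only (1, 172092348), and Blcap 8.22% and 8.74% (2, 157558149). A second Son site had 9.35% and 8.33% in the second culture only (16, 91656089). Rpsa, a ribosomal protein gene, had 3.33% and 3.70% over 2651 reads in the second culture (9, 120131419) and 26.5% and 25.4% in naive cells. Rpsa has near-identical copies in the genome, so its reads are uncertain.

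The genes with most shared sites kept their mean level between cultures to different degrees. Rpa1, a subunit of the single-strand DNA binding complex, held 30 sites on chromosome 11, 22 of them shared. They lay in groups of 88 and 65 bases (75300545 to 75300632 and 75300977 to 75301041), all within an inverted copy of 125 bases at 79.2% identity. The mean over its shared sites was 30.8% and 29.9% in the first culture and 36.9% and 31.4% in the second. Position 75301015 was at 99.5% and 98.8%, then 99.2% and 98.6%, and 75300577 at 98.3% and 96.0%, then 98.3% and 92.1%. Position 75301000 was at 50% and 43.2%, then 75% and 64.2%, without overlap. Of the 22 shared Rpa1 sites 7 were higher without overlap and 3 lower. These shares were near the 30.0% and 12.6% of all shared sites.

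Ccr4, a chemokine receptor of T helper cells, had 15 shared sites with means of 30.8% and 32.6%, then 33.6% and 33.2%. Of these, 9 lay beyond its annotated 3′ end. Rbbp4, a histone chaperone, had 6 with means of 19.4% and 17.7%, then 20.1% and 18.7%. Across sites of a gene, the mean levels of the cultures had r = 0.964 in Rpa1 (n = 22), 0.923 in Ccr4 (n = 15) and 0.719 in Wdr76 (n = 14).

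Larger differences were found in other genes. In Gnl3l, a nucleolar GTPase gene on chromosome X, the mean of 5 shared sites was 37.3% and 26.3%, then 45.0% and 62.6%. Position 150985529 was at 41.8% and 25%, then 50% and 80.0%, and 150985455 at 37.5% and 15.8%, then 52.8% and 69.6%. The second culture lay above the first without overlap at 4 of the 5 sites, against 30.0% of all shared sites. These 4 lay between 150985455 and 150985529. Library 2 had 19 or 20 reads at them in the first culture and 20 to 23 in the second. Neighbouring sites share reads, so the 4 are not independent. Over the 5 shared sites the mean difference of 22.0 points was 13.2 without library 2 of the second culture. In the fit over all shared sites neither 150985455 nor 150985529 passed limma's test (adjusted p = 0.201 and 0.261). With a minimum of 10 reads both did (adjusted p = 0.00251 and 0.00677). That fit gave both a standard error pooled over sites (0.0868, arcsine scale), against 0.105 and 0.116 in the fit over all shared sites. Fisher's test of library 2 against library 2 called neither (adjusted p = 0.0942 at each). Fnbp1, which binds membranes and actin regulators, had means of 31.9% and 32.8%, then 45.1% and 50.3%. At 5 of 5 sites it was higher and not overlapping, against the same 30.0%. Only 3 of its 5 sites had at least 10 reads in both cultures, with 10 or 11 in library 2 of the second. Wdr76 had 37.6% and 45.2%, then 46.1% and 49.6%. Of its 14 shared sites 3 were higher without overlap and 2 lower, against 30.0% and 12.6% of all shared sites. Its mean difference of 6.45 points ran from 2.66 to 10.2 when 1 library was left out. Only 8 of the 14 sites had at least 10 reads in both cultures, and over those it was 9.47 points.

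Mad2l1, a spindle checkpoint gene, was the other way: 41.9% and 46.4%, then 32.0% and 40.5% over 7 sites. The difference of -7.86 points ran from -12.1 to -3.58 when 1 library was left out. Only 2 of the 7 sites had at least 10 reads in both cultures, and over those it was 1.15 points. At position 66540281 on chromosome 6 it was at 73.1% and 72.7%, then 30.8% and 50%. Mfap1a, a splicing factor gene, was at 10.7% and 12.5%, then 47.1% and 80.0% (2, 121492422), with 16 and 5 reads in library 2. Its adjusted limma p was 0.143.

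Mapk1ip1l had 5 sites, all shared, with means of 31.3% and 26.7%, then 35.4% and 39.0%. Prrg4, a vitamin K-dependent membrane protein, had 26.3% and 24.2%, then 20.5% and 28.3%, and Ankrd28, a phosphatase subunit, 17.9% and 31.5%, then 18.5% and 23.7%. The libraries of the cultures overlapped in both. A site in another exon of Flna (X, 74226650) was at 73.1% and 54.5%, then 92.3% and 83.3%, over 11 and 6 reads. Levels of 90% or more in all 4 libraries were found at 2 shared sites and levels under 10% in all 4 at 5.

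**Figure D4:**
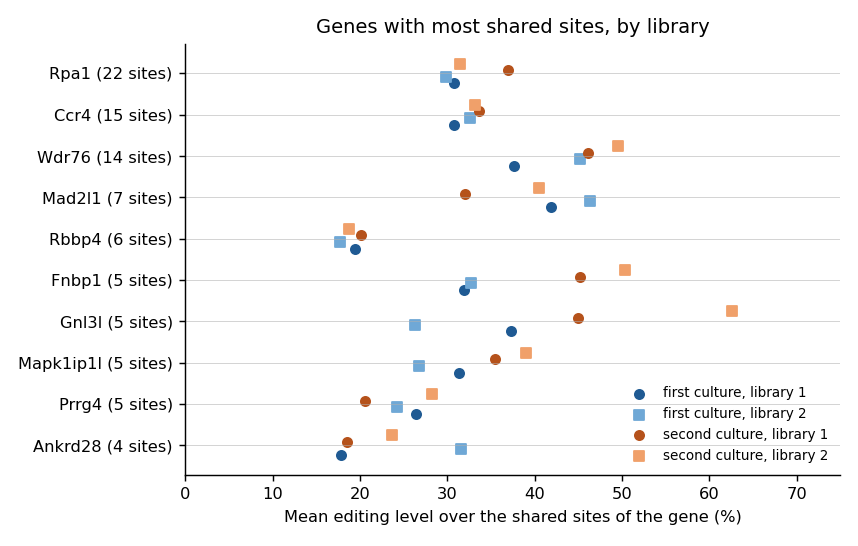
Mean editing level (percent) over the shared sites of the genes with most of them, by library. Gene means of Rpa1, Ccr4, Wdr76, Fnbp1, Gnl3l and Mapk1ip1l lay higher in both libraries of the second culture, and that of Mad2l1 lower. By site, those 6 genes were higher without overlap at 7 of 22, 3 of 15, 3 of 14, 5 of 5, 4 of 5 and 3 of 5. They were lower at 3, 1, 2, 0, 0 and 1. Over all shared sites the shares were 30.0% and 12.6%. Rbbp4 was between 17.7% and 20.1% in all 4.

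Some genes held several sites of 1 list. Slfn5, an interferon-responsive gene, had 12 first-only sites with mean levels of 10.1% to 62.2% over 13 to 35 reads, and 12 of the 12 were also listed for naive cells. Slfn5 also had 1 second-only site, and its 2 shared sites had 5 and 14 reads in the second culture. Cd48, a receptor on lymphocytes, had 7 second-only sites in introns at 26.7% to 59.8% over 5 or 6 reads, and 1 first-only site. Rnf168, a ubiquitin ligase of the DNA damage response, had 4 shared, 6 first-only and 4 second-only sites within 495 bases of its 3′ UTR. Slc35e2 had 4 shared, 4 first-only and 5 second-only sites.

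Hif1a, a transcription factor that promotes Th17 differentiation, had 6 second-only sites at 4.60% to 27.4% over 9 to 353 reads. Its shared site at 73947507 was at 21.1% and 33.3%, then 33.8% and 51.2%. Rpa1 had 6 second-only sites with a median of 8.21% over 71 to 98 reads. Of 192 first-only sites, 46.4% lay in a gene that also held a shared site, and of 148 second-only sites 54.7%.

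**Figure D5:**
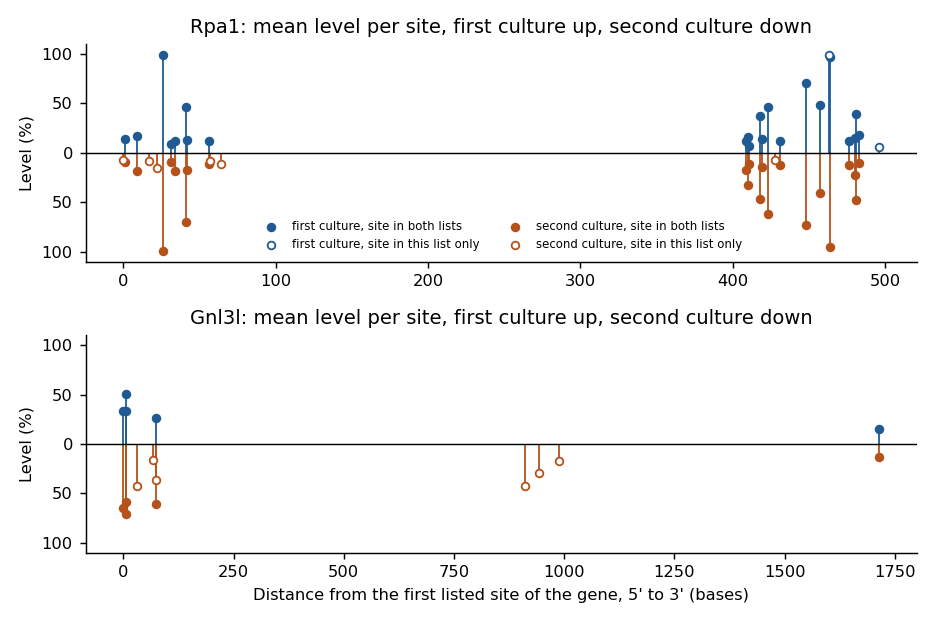
Editing level (percent) of listed sites by distance in bases from the 5′-most site, for genes with many sites. In Rpa1 the sites fall into groups of 13 and 17.

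Editing also reached a gene of its own machinery. Adarb1 held 5 sites, 1 shared, 2 first only and 2 second only, and was the only one of 13 listed editing genes with a site. Its shared site at 77324060 was at 89.5% and 57.1%, then 77.3% and 87.5%, with overlap. None of 9 sensors of double-stranded RNA had a site. Of 18 genes listed as recoding targets 9 held 42 sites: 29 shared, 4 first only and 9 second only. Rpa1 alone held 30 of these, all in its 3′ UTR and so none of them recoding: 22 shared, 2 first only and 6 second only.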

How the data were processed

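Editing fractions (0 to 1, printed as percent) and confidence scores were called by the authors with SAILOR, per the file headers; its version and settings are not given in the sources used here. Deposited coverage counts whole reads of library 2 of each culture, the library whose fractions they make whole within 0.01. Gene counts of the first culture were deposited by the authors. Per the submitters' processing notes, STAR (2.6.1a) and featureCounts were among the tools, with DESeq2 (1.18.1) and the mm10 build. Sites were joined on chromosome and position and annotated with GENCODE M21. Levels were tested with limma 3.58.1 (R 4.3.3) on the arcsine square root of the fraction, by Fisher's exact test (scipy 1.17.1) at sites with 10 reads or more in both cultures, and by exact permutation of libraries. Inverted copies came from blastn 2.17.0 (e-value 1e-05). Genes named are those with most shared sites and most sites in 1 list; others in the text, Mfap1a and Mad2l1 position 66540281 among them, were picked after their values were seen. Members and lists were chosen with earlier results of these data known. Tests were tried on simulated data. At high simulated coverage both recovered most differences. At the deposited coverage limma recovered none and Fisher's test a minority. For limma that coverage, of library 2, was given to both libraries of a culture. Fisher's test was simulated over all 207 shared sites without the minimum of 10 reads. Counting error alone underlies the reads given. Replicate numbers do not pair the libraries by the labels (r of deviations 0.097). There were 0 columns of unknown samples. Some sites counted among the totals are not reported by name here.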

Additional observations from a re-analysis of the deposited data

How the results depend on the processing

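The 207 shared sites became 101 at 20 reads or more in both cultures, 153 at 10 or more, and 217 when positions 1 base apart were joined. Against 0 sites called higher by limma, the logit scale gave 1, a trend of the spread with level 1, a minimum of 10 reads 5 and of 20 reads 4; leaving out a library gave 0 to 1. Sites called lower were 0, and 1 at 10 reads or more. Mfap1a was the site called under the logit, the trend and without library 1 of the second culture, where the lone library left, with 5 reads at the site, was assumed to vary like the first culture; 2 of the 5 at 10 reads were in Gnl3l. Fewer sites, all of higher coverage, were tested under the read minimums. Called sites there had the same standard error on the arcsine scale, 0.0868 at 10 reads and 0.0703 at 20. These fits thus used a spread pooled over sites and not each site's own. Under the trend the standard error of Mfap1a was 0.118, against 0.113 in the main fit. The cause of the added calls was not tested. With the replicate block limma called 0 higher and 0 lower (smallest adjusted p 0.208). That block cannot change the mean difference of 3.82 points, since each culture holds both replicate numbers. By replicate number the difference was 1.78 points for 1 and 5.87 for 2. Leaving out a library put the mean difference between 1.56 and 6.09 points, and leaving out Rpa1 and Ccr4 put it at 4.0 points, an alternative chosen after seeing the data. The mean of gene means was 3.29 points, with an exact permutation p of 0.667 and overlapping libraries. At the deposited coverage limma found no simulated difference, so sites not called may still differ. The simulation gave both libraries of a culture the coverage of library 2. Library 1 of the first culture had more reads on genes than its library 2 (26624436 against 11768994). The power at the true coverage of library 1 was not tested.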
